A study of Rattus norvegicus with 9 samples.

Results

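The NRF2 and antioxidant defence genes are 36 named genes, chosen by symbol and grouped here by 10 roles: the sensor and its transcription factor, quinone and haem detoxification, glutathione synthesis, the thioredoxin system, NADPH supply, glutathione peroxidases, peroxiredoxins, superoxide dismutases with catalase, glutathione transferases, and ferritin. Of these genes, 34 had a row among the 34267 genes of the deposited expression table, and 32 were abundant enough to be among the 13059 genes tested. Srxn1, which encodes sulfiredoxin, and Pgd, an enzyme of the pentose phosphate pathway, were not analysed here. The rows of Fth1 and Gpx4 lay at or near 0 and were not tested.

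Expression was measured by sequencing polyadenylated RNA of wild-type rat cartilage progenitor cells, kept as a primary culture from the condylar cartilage of the jaw joint. The control group was cells at passage 3 (P3). A second group was cells at passage 9 (P9), the study's model of replicative senescence, and the third was cells at passage 3 that had been put under flow fluid shear stress (FFSS), its model of degeneration under mechanical load. Each group held 3 libraries. The strength and duration of the flow, the age and strain of the rats, and whether libraries came from separate animals or cultures are not given in the sources used here, so p-values measure only the spread between these libraries.

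NRF2, encoded by Nfe2l2, is a transcription factor that KEAP1 holds in the cytoplasm and hands over for degradation until oxidants or electrophiles modify KEAP1. Freed NRF2 pairs with small MAF proteins at antioxidant response elements and drives genes for glutathione synthesis, thioredoxin reduction, NADPH supply, quinone and haem breakdown, and iron storage. Superoxide dismutases turn superoxide into hydrogen peroxide, which catalase, glutathione peroxidases and peroxiredoxins remove, and glutathione transferases couple glutathione to reactive compounds. In cartilage these enzymes are known for limiting oxidative damage to cells and matrix.

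Promoter sequence gave a view of the members that did not use their levels. A promoter window from 250 bases before to 50 bases after the start was available from RefSeq (build GRCr8) for 29 of the 36 members. The antioxidant response element core, TGACNNNGC, was sought on both strands and lay in 8 of the 32 windows of these members, each of a different member, and in 4038 of all 33469 windows of 300 bases (12.1%). The members were Gclm, Gstp1, Me1, Nfe2l2, Prdx1, Prdx5, Sod2 and Txnrd1. A match is a description of letters and not a measured binding site. Sequence outside the windows was not searched, so a window without the core does not show that the gene lacks an element.

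The 6 stretches below are shown because their core lay wholly before the start. They run 5′ to 3′ in the direction of the gene, with the core in capitals.
Gclm: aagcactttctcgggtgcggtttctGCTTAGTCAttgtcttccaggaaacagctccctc
Gstp1: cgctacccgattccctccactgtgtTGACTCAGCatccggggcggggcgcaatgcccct
Me1: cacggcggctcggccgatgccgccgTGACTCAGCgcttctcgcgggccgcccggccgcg
Prdx1: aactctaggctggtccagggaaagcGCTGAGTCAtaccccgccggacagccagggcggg
Txnrd1: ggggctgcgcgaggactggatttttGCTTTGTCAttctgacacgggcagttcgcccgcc
Sod2: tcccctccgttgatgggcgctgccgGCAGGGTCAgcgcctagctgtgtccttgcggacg
They lie at chr2:213031938-213031996 (plus strand, Gclm), chr1:210769733-210769791 (minus strand, Gstp1), chr8:96540378-96540436 (minus strand, Me1), chr5:135383746-135383804 (plus strand, Prdx1), chr7:22755949-22756007 (minus strand, Txnrd1) and chr1:50050170-50050228 (minus strand, Sod2) of GRCr8. The core read forward in Gstp1 and Me1 and on the opposite strand in the others. In Gstp1, Me1 and Prdx1 the core also holds TGACTCA, the motif of AP-1, so the letters do not tell these elements apart. Set against the expression tests described below, 2 of the 8 members with the core (Gstp1 and Sod2) passed in at least 1 comparison, as did 10 of the 18 tested members whose window lacked it. Of all tested genes, 9.83% passed for P9 against P3, 21.8% for FFSS against P3 and 31.4% for P9 against FFSS. The share that passed in at least 1 comparison was not counted, so no difference is read from these counts.

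All values are FPKM, fragments normalised to gene length and sequencing depth, so that levels can be compared between genes. Differences were tested with limma on log2(FPKM + 1), which understates the change of genes with low levels, and a gene passed at a Benjamini-Hochberg adjusted p under 0.05 over all 13059 tested genes. P9 and FFSS were each set against the same P3 libraries, and P9 was set against FFSS to test whether the models differed. Fragments on genes totalled 13264930 to 15323790 in each library. FFSS libraries varied most, with a median standard deviation over all tested genes of 0.268 on the log2 scale, against 0.110 in P3 and 0.175 in P9. FFSS replicate 1 stood nearer to P3 than the other FFSS libraries did, its correlation across genes being 0.936 to 0.945 with P3 libraries, and 0.915 and 0.947 with FFSS replicates 2 and 3, which correlated at 0.969 with each other. Calls on members that change without it are given both ways.

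The progenitor label was checked against marker genes. Markers of mesenchymal progenitors summed to 2079 to 2817 FPKM over all libraries, most of it Thy1 and Itgb1. Of these 8 markers, 4 were higher and 1 lower under shear stress, where 21.8% of all tested genes passed. Thy1, Eng, Pdgfra and Pdgfrb were higher (adjusted p = 0.0253, 0.0416, 0.00647 and 0.00731), and Mcam was lower (adjusted p = 0.00845). At passage 9, where 9.83% passed, Mcam was higher (adjusted p = 0.00710) and Eng lower (adjusted p = 0.0149). The 10 cartilage markers summed to 952 to 1072 FPKM at P3, 786 to 817 at P9 and 469.7 to 611 under shear stress. Nearly all of this was Col11a1, a minor fibrillar collagen, and Acan, the aggrecan core protein, while Col2a1, the main collagen gene of mature cartilage, reached at most 1.06 FPKM. Acan stood at 122 to 135 FPKM in P3, 499 to 609 in P9 (higher, adjusted p = 0.000288) and 29.3 to 48.2 under shear stress (lower, adjusted p = 0.000827). Col11a1 was lower in both models, at 809 to 918 FPKM in P3, 194 to 307 in P9 (adjusted p = 0.000524) and 405 to 523 under shear stress (adjusted p = 0.0155). Of the 7 cartilage markers tested, 4 were higher under shear stress and 2 lower, where 21.8% of all tested genes passed. Sox9, Sox5, Sox6 and Hapln1 were higher (adjusted p = 0.00338, 0.00583, 0.0315 and 0.00924). Sox5 and Hapln1 met the filter of 1 FPKM in 3 libraries only with those of FFSS. At passage 9, 1 was higher and 2 lower, Col11a1 and Sox6 (adjusted p = 0.000731), where 9.83% passed. The 9 measured markers of macrophages and other leukocytes summed to 42.3 to 106 FPKM in FFSS, against 9.70 to 11.3 in P3 and 6.19 to 7.02 in P9, most of it from Cd14 (39.9 to 94.3 FPKM in FFSS). Of these markers Cd14 and Cd68 were abundant enough to test, and both were higher in FFSS than in P3 (adjusted p = 0.000620 and 0.00780). Cd68 stood at 2.11 to 2.60 FPKM in FFSS and under 1 FPKM in every P3 and P9 library. It met the filter of 1 FPKM only through FFSS, so a rise there was built into its being tested. Lyz2 stood at 0.0562, 5.36 and 2.94 FPKM and Csf1r at 0.0840, 3.17 and 2.08 FPKM in FFSS replicates 1, 2 and 3, and in P3 they reached at most 0.305 and 0.187 FPKM. Ptprc, the leukocyte common antigen, stayed at or under 0.0400 FPKM, and Cd3e was at 0 throughout. Markers of skeletal muscle summed to 35.8 to 43.4 FPKM in P9, against 2.76 to 16.7 in P3 and 0.640 to 2.03 in FFSS. Most of the P9 sum was Acta1, skeletal alpha-actin (35.1 to 42.5 FPKM), with Des at 0.422 to 0.796 FPKM, Myod1 at 0.0673 to 0.604 and Myog at 0 in P9. These sums moved with the groups, and their part in the results on the antioxidant genes was not tested. In bulk RNA, fewer cells of a type and less RNA per cell cannot be told apart.

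At passage 9, 7 of 32 tested members (21.9%) passed against P3, where 9.83% of all tested genes did (5.39% higher, 4.44% lower). The higher ones were Txn1, Tkt and Gsta4, and the lower ones were Hmox1, Slc7a11, Gpx3 and Prdx3. Under shear stress, 9 of 32 (28.1%) passed, where 21.8% of all genes did (11.4% higher, 10.4% lower). Gpx1, Gpx3, Gpx8, Prdx2, Sod2, Sod3, Gsta4 and Mgst1 were higher, and Prdx3 was lower. Between the models, 7 of 32 (21.9%) passed, where 31.4% of all genes did (16.1% higher in P9, 15.3% lower): Gss and Gstp1 were higher in P9, and Hmox1, Slc7a11, Gpx3, Sod2 and Sod3 were higher in FFSS. The shares for shear stress and for P9 against FFSS were thus near or below those of all genes.

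Overlap between the libraries of each pair of groups was counted as well. Every P9 library lay above every P3 library for 13 of the 32 members and below for 5, where 40.1% of all tested genes did not overlap (20.9% higher, 19.1% lower). Every FFSS library lay above P3 for 11 members and below for 1, where the share of all genes was 42.4% (20.1% higher, 22.3% lower). P9 lay wholly above FFSS for 5 members and wholly below for 7, where it was 42.2% (22.2% higher, 20.0% lower).

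Gsta4 and Mgst1 had passed the filter on low values without P3, so a difference from P3 was built into their place among the tested members. Over the other 30 members the counts were 6 at passage 9 (2 higher, 4 lower), 7 under shear stress (6 higher, 1 lower) and 7 between the models. The lower members at passage 9 still include Slc7a11, which met the filter through P3 and FFSS and not through P9. The median log2 fold change over the 32 members was 0.18 for P9 minus P3 and 0.29 for FFSS minus P3, where the medians over all tested genes were -0.00262 and -0.0109. Over the 30 members without Gsta4 and Mgst1 it was 0.11 and 0.26. Counts of members called were sensitive to single libraries. At passage 9, the count of higher members dropped to 1 on leaving out P3 replicate 1, P3 replicate 3 or P9 replicate 1, and grew to 5 on leaving out FFSS replicate 2 and to 9 on leaving out FFSS replicate 1. Under shear stress it dropped to 4 on leaving out P3 replicate 1, P3 replicate 2 or FFSS replicate 3, and to 5 on leaving out P3 replicate 3, and the count of lower members grew to 3 on leaving out FFSS replicate 1. Between the models, members higher in P9 dropped to 1 on leaving out FFSS replicate 2 and to 0 on leaving out FFSS replicate 3 or any P3 or P9 library, and leaving out FFSS replicate 1 gave 6 higher and 9 lower.

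**Figure D1:**
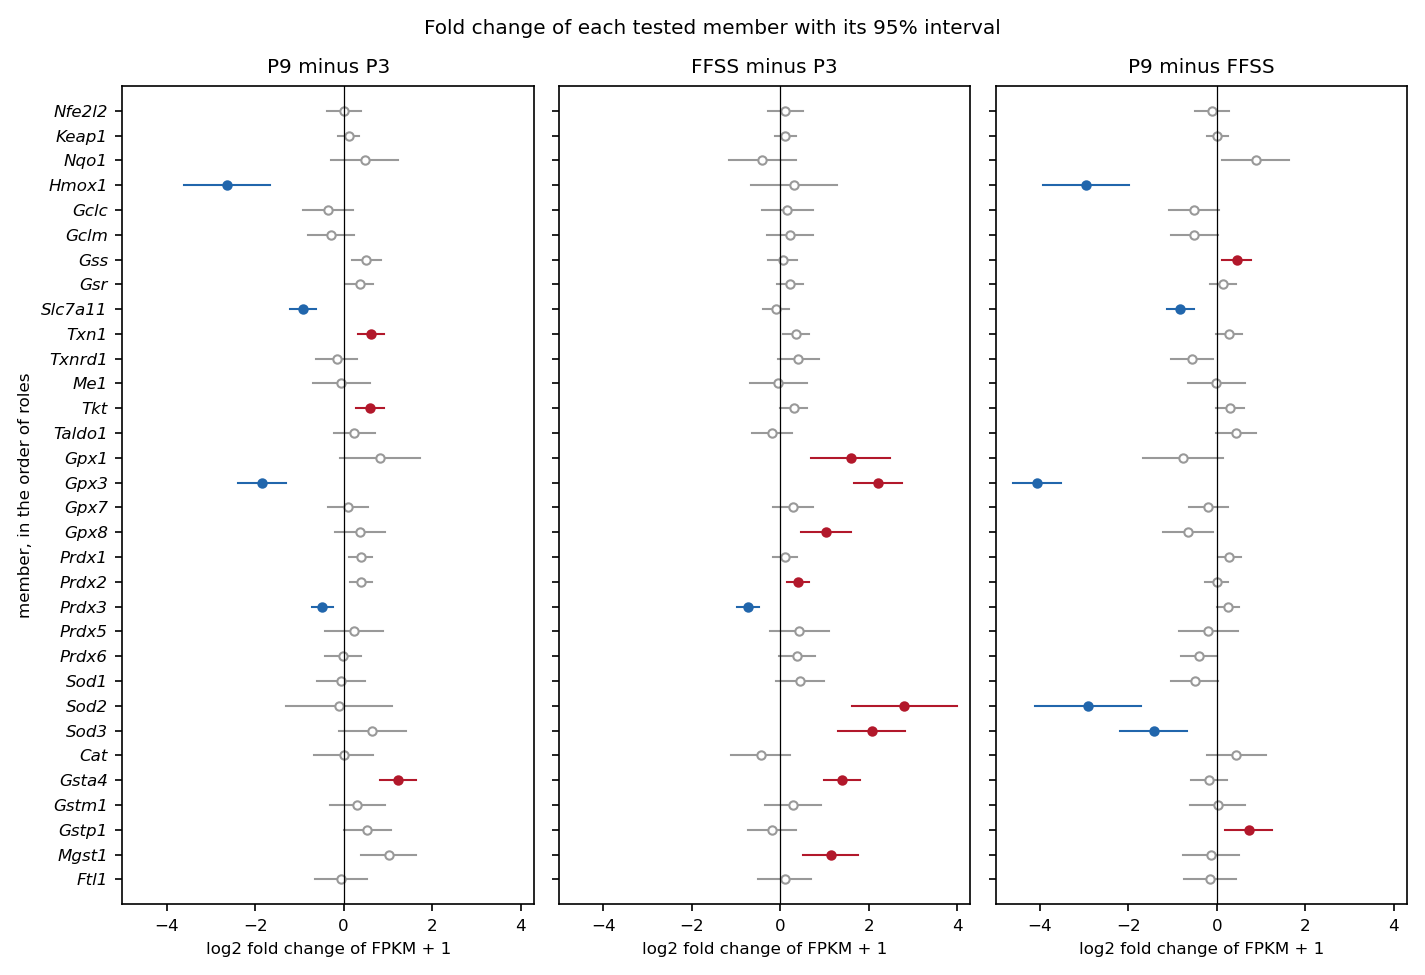
Log2 fold change of FPKM + 1 of each tested member (points, with 95% intervals from limma as bars) in 3 panels (P9 minus P3, then FFSS minus P3, then P9 minus FFSS), with members ordered by role; filled points passed at an adjusted p under 0.05. Gpx3 lies at -1.85 in P9 and 2.21 in FFSS against P3, and Nfe2l2 and Keap1 lie within 0.12 of 0 in each panel.

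The transcription factor and its sensor did not pass in any comparison. Nfe2l2 was at 75.5, 76.1 and 79.4 FPKM in P3, at 93.9, 72.9 and 68.0 in P9, and at 66.0, 99.6 and 89.0 under shear stress. The groups overlapped, and P9 and FFSS each held libraries above and below all of P3. The log2 fold change of Nfe2l2 was 0.01 for P9 minus P3 (95% interval -0.38 to 0.40, adjusted p = 0.982) and 0.12 for FFSS minus P3 (-0.27 to 0.51, adjusted p = 0.648).

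Keap1, whose product senses electrophiles and presents NRF2 to its ubiquitin ligase, stood at 14.9, 13.8 and 14.6 FPKM in P3, 14.7, 16.5 and 15.9 in P9, and 14.4, 15.5 and 17.1 in FFSS. These ranges overlapped as well. Its log2 fold change was 0.12 for P9 minus P3 (-0.12 to 0.35, adjusted p = 0.571) and 0.11 for FFSS minus P3 (-0.13 to 0.35, adjusted p = 0.485). The intervals of both genes leave out a doubling and a loss to 50% of the P3 level on this scale. These are RNA levels, and the abundance of the proteins was not measured.

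Of 10 tested regulators and partners of NRF2, 2 passed under shear stress, both higher, and 0 passed at passage 9 or between the models, where 21.8%, 9.83% and 31.4% of all tested genes did. Mafk, a small MAF partner, stood at 22.9 ± 3.63 FPKM in P3 and 62.2 ± 27.1 in FFSS (SD, n = 3; adjusted p = 0.0185), and its call was lost without P3 replicate 1 or 3 or FFSS replicate 3. Sqstm1, which encodes p62, an autophagy receptor that binds KEAP1, stood at 170.3 ± 10.4 FPKM in P3, 204 ± 0.516 in P9 and 246 ± 9.77 in FFSS. Its rise under shear stress (log2 fold change 0.53, adjusted p = 0.00675) was kept whichever library was left out.

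Hmox1 fell at passage 9 and Nqo1 did not pass. Hmox1 encodes heme oxygenase 1, which breaks haem down to biliverdin, carbon monoxide and iron. Its level was 449.8, 622 and 331 FPKM in P3, 45.5, 58.5 and 136 in P9, and 369.8, 796 and 609.7 in FFSS. Every P9 library lay below every P3 and FFSS library, P9 replicate 3 stood 3.00 times above P9 replicate 1, and FFSS overlapped P3. In P9 the fall was 6.26-fold against P3 (log2 fold change -2.65, -3.62 to -1.67, adjusted p = 0.00537). P9 lay 7.80-fold below FFSS (-2.96, -3.94 to -1.99, adjusted p = 0.00137), and FFSS did not pass against P3 (0.32, -0.66 to 1.29, adjusted p = 0.627). Both calls were kept in every alternative tried.

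Nqo1, a quinone reductase often used as a readout of NRF2 activity, stood at 556, 669 and 434 FPKM in P3, 601, 605 and 1196 in P9, and 280.1, 569 and 435 in FFSS. P3 overlapped both models, every P9 library lay above every FFSS library, and P9 replicate 3 was the highest library. Neither model passed against P3 (log2 fold change 0.48, adjusted p = 0.452 for P9 and -0.40, adjusted p = 0.410 for FFSS), and the difference between P9 and FFSS of 0.88 (0.13 to 1.64) had an adjusted p of 0.0734. It passed without FFSS replicate 2 (adjusted p = 0.0472) and with TPM scaling (adjusted p = 0.0444). The P9 library with the highest Nqo1, replicate 3, was also the one with the highest Hmox1.

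**Figure D2:**
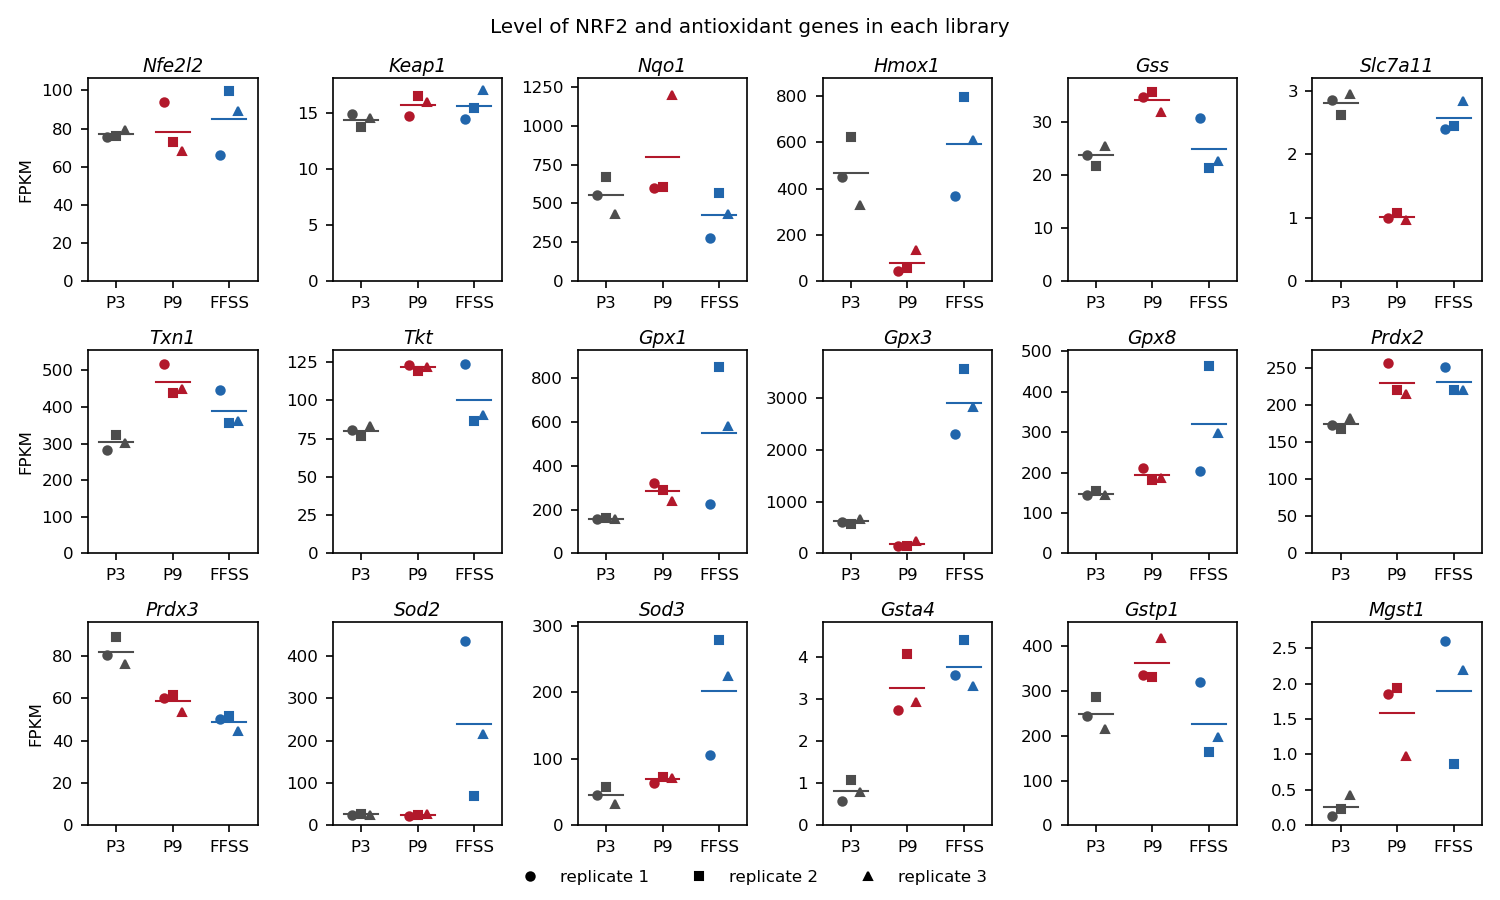
Level in FPKM (linear axes from 0) of members in each library of P3, P9 and FFSS, with the marker shape giving the replicate number and a line the group mean. Hmox1 in P9 (45.5 to 136) lies below all other libraries, Gpx3 is lowest in P9 and highest in FFSS (2309 to 3560.0), and Sod2 in FFSS runs from 68.9 to 436.

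Among other NRF2 targets outside the members, 14 were tested. At passage 9, 1 passed as higher, under shear stress 1 passed as higher, and between the models 3 passed. The shares of all tested genes were 9.83%, 21.8% and 31.4%. Ephx1, an epoxide hydrolase, rose in P9 from 3.03 ± 0.546 to 8.44 ± 0.924 FPKM (adjusted p = 0.0459), a call lost under 7 of the 9 single-library omissions, all but those of FFSS replicates 1 and 2. Osgin1, an oxidative stress-induced growth inhibitor, stood at 0.701 ± 0.264 FPKM in P3, 0.721 ± 0.299 in P9 and 5.03 ± 1.87 in FFSS. It was higher in FFSS than in P3 (log2 fold change 1.79, adjusted p = 0.00270) and than in P9 (adjusted p = 0.00117). With means under the filter of 1 FPKM in P3 and P9, Osgin1 was tested through its FFSS level. A rise in FFSS was therefore built into its being tested. The exporter Abcc1 and the biliverdin reductase Blvrb were higher in P9 than in FFSS, at 17.3 ± 0.987 against 10.2 ± 2.88 FPKM (adjusted p = 0.0166) and 22.9 ± 7.10 against 11.2 ± 6.04 FPKM (adjusted p = 0.0458). Without P9 replicate 1 Abcc1 no longer passed (adjusted p = 0.0536), and Blvrb was lost under 7 of 9 omissions, all but those of P9 replicate 1 and FFSS replicate 1.

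In glutathione synthesis, the cystine importer fell at passage 9 and the ligases did not pass against P3. Slc7a11 encodes the transport subunit of system xc-, which brings in cystine for glutathione. It stood at 2.86, 2.63 and 2.95 FPKM in P3, 0.997, 1.08 and 0.960 in P9, and 2.41, 2.45 and 2.84 in FFSS. P9 lay below both other groups with no overlap, while FFSS overlapped P3. Its log2 fold change was -0.92 for P9 minus P3 (-1.22 to -0.62, adjusted p = 0.00312) and -0.82 for P9 minus FFSS (adjusted p = 0.00220). These calls held in every alternative that tested the gene. The P9 libraries alone would not have met the filter of 1 FPKM, so Slc7a11 was tested through its P3 and FFSS levels.

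Gss, glutathione synthetase, stood at 23.8, 21.7 and 25.4 FPKM in P3, 34.6, 35.6 and 31.8 in P9, and 30.7, 21.3 and 22.6 in FFSS. P9 lay above all other libraries. It passed against FFSS (log2 fold change 0.45, 0.13 to 0.78, adjusted p = 0.0416), and that call was lost whenever any library but FFSS replicate 1 was left out. Against P3 the log2 fold change was 0.51 with an adjusted p of 0.0611, which became a call without FFSS replicate 1 (adjusted p = 0.00791) or FFSS replicate 2 (adjusted p = 0.0398). It was also a call with only P3 and P9 in the fit.

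The remaining members of this role did not pass. Gclc, the catalytic subunit of the rate-limiting ligase, stood at 36.9 ± 0.695 FPKM in P3, 28.7 ± 2.65 in P9 and 43.7 ± 16.4 in FFSS, where replicate 1 was at 25.5 and the others at 57.4 and 48.1. It passed as higher in FFSS than in P3 (adjusted p = 0.0111) and than in P9 (adjusted p = 0.000671) when that library was left out. Every P9 library of Gclc lay below every P3 library, where 19.1% of all tested genes did so. Its log2 fold change for P9 minus P3 was -0.36 (adjusted p = 0.456), and it passed as lower with only P3 and P9 in the fit (adjusted p = 0.0361). Gclm, the modifier subunit, stood at 16.5 ± 1.89, 13.5 ± 3.16 and 19.9 ± 6.05 FPKM in P3, P9 and FFSS, and passed as lower in P9 than in FFSS only without FFSS replicate 2 (adjusted p = 0.0268). Gsr, glutathione reductase, stood at 16.9 ± 2.33, 21.9 ± 1.65 and 19.8 ± 1.82 FPKM.

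Of 16 tested genes for other uses of glutathione, 2 passed as higher at passage 9, 4 as higher under shear stress and 7 between the models, beside 9.83%, 21.8% and 31.4% of all tested genes. Gstt1, a transferase, stood at 2.35 ± 0.543 FPKM in P3, 5.18 ± 1.005 in P9 and 8.65 ± 0.890 in FFSS, with adjusted p = 0.0138 in P9 and 0.00117 in FFSS. Leaving out P3 replicate 1, P9 replicate 1 or P9 replicate 2 ended the P9 call. Oplah, which returns oxoproline to glutamate, stood at 3.00 ± 0.421, 6.76 ± 0.662 and 3.35 ± 0.977 FPKM and was higher in P9 than in P3 (adjusted p = 0.0118) and FFSS (adjusted p = 0.00840). The call against P3 ended on leaving out P3 replicate 1 or 3, or P9 replicate 2 or 3.

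More transferases were higher in FFSS. Gstm2 stood at 34.0 ± 3.30 FPKM in P3, 29.5 ± 1.59 in P9 and 63.2 ± 8.51 in FFSS (adjusted p = 0.00327 against P3). Gstm4 stood at 9.33 ± 0.668, 7.98 ± 0.828 and 14.0 ± 0.743 FPKM (adjusted p = 0.0124, lost without P3 replicate 2 or 3). Gene copies of the Mu class resemble each other, and how fragments shared between them were assigned is not given in the sources used here. The membrane transferase Mgst2 stood at 17.7 ± 2.06, 33.1 ± 9.43 and 43.4 ± 18.8 FPKM (adjusted p = 0.0244 in FFSS, lost without any of the P3 libraries or FFSS replicate 3). Mgst3 passed between the models, at 7.80 ± 0.842 FPKM in P9 and 25.4 ± 8.60 in FFSS (adjusted p = 0.00385), as did Gstm2 (adjusted p = 0.000531) and Gstm4 (adjusted p = 0.00178).

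Txn1, the cytosolic thioredoxin, rose at passage 9. It stood at 283, 324 and 302 FPKM in P3, 517, 438 and 450.2 in P9, and 447, 357 and 362 in FFSS. All P9 and all FFSS libraries lay above P3, and P9 overlapped FFSS. The log2 fold change was 0.62 for P9 minus P3 (0.33 to 0.92, adjusted p = 0.0166), and the call was lost without P3 replicate 1, P3 replicate 3 or P9 replicate 1 (adjusted p = 0.0523 to 0.0927). FFSS did not pass against P3 (adjusted p = 0.0832). On leaving out FFSS replicate 1, Txn1 passed as higher in P9 than in FFSS (0.38, adjusted p = 0.0283). Txnrd1, the selenoenzyme that reduces thioredoxin, stood at 73.6 ± 19.4 FPKM in P3, 65.2 ± 10.6 in P9 and 96.6 ± 14.9 in FFSS and did not pass. P9 was lower than FFSS for Txnrd1 without FFSS replicate 1 (adjusted p = 0.0317) or P3 replicate 2 (adjusted p = 0.0457).

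Of 17 further genes of the thioredoxin and glutaredoxin systems and of methionine sulfoxide repair, 4 passed at passage 9, all higher, where 9.83% of all tested genes passed, and 2 under shear stress, both higher, where 21.8% did. Msrb1, a selenoenzyme that reduces oxidised methionine, stood at 29.5 ± 2.12 FPKM in P3, 53.0 ± 6.60 in P9 and 42.7 ± 3.85 in FFSS (adjusted p = 0.00363 and 0.0192), and its FFSS call was lost without P3 replicate 1 or 2 or FFSS replicate 3. Nxn, nucleoredoxin, stood at 67.9 ± 4.66, 103 ± 4.06 and 59.5 ± 3.07 FPKM and was higher in P9 than in P3 (adjusted p = 0.00565) and FFSS (adjusted p = 0.000663). Txnrd2, the mitochondrial thioredoxin reductase, stood at 3.18 ± 0.346, 6.87 ± 0.620 and 3.22 ± 1.35 FPKM. Its rise in P9 (adjusted p = 0.0258) was lost whenever a P3 or P9 library was left out, whereas P9 against FFSS (adjusted p = 0.00951) kept its call. Msrb3, another methionine sulfoxide reductase, stood at 47.7 ± 6.73 FPKM in P3 and 78.3 ± 8.19 in P9 (adjusted p = 0.0306, lost under 5 of 9 omissions: P3 replicates 1 and 3 and each P9 library).

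Txnip, which binds thioredoxin and inhibits it, rose under shear stress to 41.4 ± 5.22 FPKM, where P3 had 16.2 ± 1.89 (log2 fold change 1.30, adjusted p = 0.00291), and stood at 21.1 ± 5.05 in P9. Between the models 8 of these 17 genes passed, 4 each way, where 31.4% of all genes did. Those with the smallest adjusted p were Nxn, Txnip (adjusted p = 0.00523), Txnrd2 and Sesn2. Sesn2, a stress-induced sestrin, stood at 23.3 ± 3.26 FPKM in P9 and 80.2 ± 41.5 in FFSS (adjusted p = 0.0124, and 0.0508 without FFSS replicate 3).

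In NADPH supply, Tkt rose at passage 9. Tkt encodes transketolase of the pentose phosphate pathway. It stood at 80.8, 76.5 and 83.0 FPKM in P3, 123, 119 and 122 in P9, and 124, 86.5 and 90.3 in FFSS. All P9 and FFSS libraries lay above P3. The log2 fold change for P9 minus P3 was 0.60 (0.28 to 0.91, adjusted p = 0.0285), a call lost when any P3 or P9 library was left out (adjusted p = 0.0803 to 0.102). P9 also passed as higher than FFSS on leaving out FFSS replicate 1 (adjusted p = 0.00375).

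Taldo1, the transaldolase that works beside Tkt, stood at 75.2 ± 4.11 FPKM in P3, 90.0 ± 14.3 in P9 and 67.9 ± 20.9 in FFSS and did not pass. Without FFSS replicate 1 it was lower in FFSS than in P3 (adjusted p = 0.0476) and than in P9 (adjusted p = 0.00595). Me1, the cytosolic malic enzyme, stood at 40.9 ± 1.44, 39.7 ± 5.57 and 42.7 ± 18.7 FPKM, with FFSS libraries from 23.6 to 61.0.

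Glutathione peroxidases held the member with the largest difference between the models. Gpx3 encodes the secreted plasma glutathione peroxidase (chromosome 10, 40247436 to 40255422, plus strand, Rnor_6.0). Its level was 615, 565 and 670.3 FPKM in P3, 141, 140.4 and 247 in P9, and 2309, 3560.0 and 2826 in FFSS. No groups overlapped, with P9 lowest and FFSS highest. Gpx3 was 3.61-fold lower in P9 than in P3 (log2 fold change -1.85, -2.40 to -1.31, adjusted p = 0.00200) and 4.63-fold higher in FFSS than in P3 (2.21, 1.67 to 2.76, adjusted p = 0.00100). P9 lay 16.7-fold below FFSS (-4.06, -4.61 to -3.52, adjusted p = 1.49e-05). All 3 calls were kept in every alternative. Gpx3 was the only member called in opposite directions in the models.

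Gpx1, the abundant cytosolic enzyme, stood at 158, 162 and 158 FPKM in P3, 321, 291 and 241 in P9, and 226, 849 and 581 in FFSS. All P9 and FFSS libraries lay above P3, and FFSS replicate 2 stood 3.76 times above FFSS replicate 1. Gpx1 passed as higher in FFSS (log2 fold change 1.59, 0.69 to 2.49, adjusted p = 0.0228), a call lost without any P3 library or FFSS replicate 3 (adjusted p = 0.0671 to 0.0809), and with only P3 and FFSS in the fit (adjusted p = 0.0566). Without FFSS replicate 1 the value was 2.14 (adjusted p = 0.000124). P9 minus P3 was 0.82 with an adjusted p of 0.259, and passed in the fit without FFSS replicate 1 (adjusted p = 0.00948) or with only P3 and P9 (adjusted p = 0.00405). On leaving out that library, Gpx1 was also lower in P9 than in FFSS (-1.31, adjusted p = 0.000658).

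Gpx8, a peroxidase of the endoplasmic reticulum membrane, stood at 144, 154 and 146 FPKM in P3, 212, 182 and 186 in P9, and 204, 462 and 297 in FFSS. P3 was again below all other libraries, and P9 overlapped FFSS. FFSS passed against P3 (log2 fold change 1.03, 0.47 to 1.59, adjusted p = 0.0203), lost without any P3 library or FFSS replicate 3 (adjusted p = 0.0603 to 0.0696), and with only P3 and FFSS in the fit (adjusted p = 0.0506). Without FFSS replicate 1 the value was 1.32 (adjusted p = 0.000914), and P9 then passed as lower than FFSS (adjusted p = 0.00317). For Gpx8, P9 minus P3 was 0.38 with an adjusted p of 0.420, and passed with only P3 and P9 in the fit (adjusted p = 0.0294). Gpx7, its near relative in the endoplasmic reticulum, stood at 114 ± 4.82 FPKM in P3, 123 ± 21.7 in P9 and 143 ± 38.9 in FFSS and did not pass.

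Gpx4, the lipid hydroperoxide peroxidase that limits ferroptosis, had 0 to 6 fragments in each library (0 to 0.223 FPKM) and was not tested. Fth1, the ferritin heavy chain, was at 0 in all 9 libraries. Its partner Ftl1, the ferritin light chain, stood at 3567, 3745 and 3050.0 FPKM in P3, 2315, 3093 and 5029 in P9, and 3335, 4057 and 3707 in FFSS, which ranked it 6 by mean level among all genes. P9 ran both below and above the other groups, and Ftl1 did not pass (adjusted p = 0.927 for P9 and 0.811 for FFSS, each against P3). Ftl1-like rows also sit in the table (LOC100362384, LOC100360087 and LOC100359668, at mean levels of 20.8, 13.9 and 11.1 FPKM), and how shared fragments were assigned is not given in the sources used here.

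The annotation showed that these silent rows overlap other genes. The span of Fth1 (chromosome 1, 226030938 to 226033228, plus strand) lies 100% within that of Best1 on the opposite strand (226030875 to 226049929), a gene at 0.753 to 0.951 FPKM in P3 and 6.60 to 7.64 in FFSS. That of Gpx4 (chromosome 7, 12516352 to 12519154, minus strand) is overlapped over 82.2% of its length by Sbno2 on the plus strand, at 10.9 to 11.9 FPKM in P3 and 19.2 to 20.9 in FFSS. The strandedness of the libraries and the treatment of overlapping genes are not given in the sources used here, so the part of the overlap in these low values was not tested, and the rows do not show that either gene was off.

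**Figure D3:**
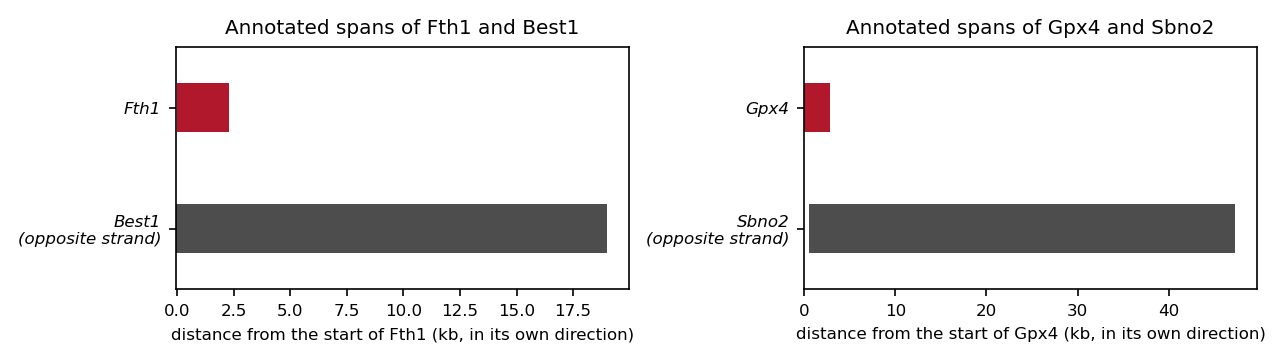
Annotated spans of Fth1 with Best1 and of Gpx4 with Sbno2 (bars, with the overlapping gene on the opposite strand), plotted as distance in kilobases from the start of Fth1 or Gpx4. Best1 covers 100% of Fth1 and Sbno2 covers 82.2% of Gpx4.

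Among peroxiredoxins, the mitochondrial enzyme was lower in both models. Prdx3 stood at 80.5, 89.1 and 76.2 FPKM in P3, 60.2, 61.6 and 53.7 in P9, and 49.998, 51.4 and 44.7 in FFSS. No groups overlapped, with P3 highest and FFSS lowest. Prdx3 fell under shear stress (log2 fold change -0.74, -0.98 to -0.49, adjusted p = 0.00333) in every alternative. Its fall at passage 9 was smaller (-0.48, -0.73 to -0.23, adjusted p = 0.0260) and was lost whenever a P3 or P9 library was left out (adjusted p = 0.0533 to 0.106). P9 did not pass against FFSS (adjusted p = 0.0997), but passed as higher with TPM or library totals scaling (adjusted p = 0.0223 to 0.0459).

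Prdx2, a cytosolic peroxiredoxin, stood at 173, 167 and 182 FPKM in P3, 256, 219.9 and 214 in P9, and 251, 221 and 219.8 in FFSS. P3 lay below all other libraries. The log2 fold change was 0.40 in both models, with an adjusted p of 0.0344 under shear stress and 0.0597 at passage 9. The shear stress call was lost without any P3 library, P9 replicate 2, or FFSS replicate 2 or 3 (adjusted p = 0.0523 to 0.119), and with TPM scaling (adjusted p = 0.133). The passage 9 difference passed without FFSS replicate 1 (adjusted p = 0.0270), with library totals scaling or with only P3 and P9 in the fit (adjusted p at most 0.0494).

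Prdx1, also cytosolic, stood at 226 ± 13.8 FPKM in P3, 295 ± 10.4 in P9 and 244 ± 28.1 in FFSS. All P9 libraries (286 to 306) lay above the other groups, and P9 minus P3 had an adjusted p of 0.0736, or 0.0455 without FFSS replicate 1. It also passed with TPM scaling, library totals scaling or only P3 and P9 in the fit (adjusted p = 0.0230 to 0.0486). P9 passed as higher than FFSS with TPM scaling (adjusted p = 0.0169). Prdx5, found in several compartments, stood at 171 ± 17.2, 202 ± 23.9 and 249 ± 127 FPKM, with 394 in FFSS replicate 1 and 156 in FFSS replicate 2. Prdx6, which also reduces phospholipid hydroperoxides, stood at 65.0 ± 11.3, 64.5 ± 11.3 and 84.9 ± 13.7 FPKM. Neither Prdx5 nor Prdx6 passed in any comparison.

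Superoxide dismutases rose under shear stress in 2 of 3 cases. Sod2, the mitochondrial manganese enzyme and a known target of NF-kB (chromosome 1, 47914759 to 47921587, minus strand, Rnor_6.0), stood at 24.8, 27.3 and 25.5 FPKM in P3, 21.3, 23.6 and 27.3 in P9, and 436, 68.9 and 215 in FFSS. Every FFSS library lay above every other library, and the highest FFSS library stood 6.33 times above the lowest. The rise in FFSS was 6.99-fold (log2 fold change 2.81, 1.61 to 3.999, adjusted p = 0.00826), and P9 lay 7.52-fold below FFSS (-2.91, -4.10 to -1.72, adjusted p = 0.00392). The rise was 2.20 (adjusted p = 0.00324) without FFSS replicate 1, the highest library, and 3.52 (adjusted p = 0.000413) without replicate 2, the lowest. P9 and P3 overlapped (-0.10, adjusted p = 0.937). The summed leukocyte markers stood at 42.3 to 106 FPKM in FFSS and were lowest in replicate 1, and their part in the Sod2 result was not tested.

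Sod3, the secreted enzyme that binds matrix, stood at 45.0, 57.3 and 32.6 FPKM in P3, 64.3, 72.5 and 70.8 in P9, and 105, 278 and 224 in FFSS. No groups overlapped, with P3 lowest and FFSS highest. It rose 4.20-fold in FFSS (log2 fold change 2.07, 1.31 to 2.83, adjusted p = 0.00490), a call kept in every alternative. P9 was lower than FFSS (-1.43, -2.18 to -0.67, adjusted p = 0.0125), with an adjusted p of 0.0506 without FFSS replicate 3, and did not pass against P3 (adjusted p = 0.298).

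Sod1, the cytosolic copper and zinc enzyme, stood at 164 ± 8.26 FPKM in P3, 164 ± 52.8 in P9 and 226 ± 37.0 in FFSS. The FFSS libraries (200.01 to 268) lay above those of P3 and P9, but the difference from P3 passed only without P9 replicate 1 (adjusted p = 0.0388, against 0.201 with all libraries). Cat, catalase, stood at 24.8 ± 0.823, 24.9 ± 2.76 and 19.6 ± 10.1 FPKM, with 30.6, 10.7 and 17.6 in the FFSS libraries. Without FFSS replicate 1 it was lower in FFSS than in P3 (adjusted p = 0.0106) and than in P9 (adjusted p = 0.00855).

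On the producing side, 6 oxidase genes were tested, of which 1 passed at passage 9, 3 under shear stress and 2 between the models (9.83%, 21.8% and 31.4% of all tested genes). Xdh, xanthine dehydrogenase, which makes superoxide in its oxidase form, stood at 21.4 ± 2.97 FPKM in P3, 8.76 ± 1.36 in P9 and 79.6 ± 2.24 in FFSS. It fell at passage 9 (log2 fold change -1.20, adjusted p = 0.00107), rose under shear stress (1.85, adjusted p = 0.000139) and differed between the models (-3.05, adjusted p = 3.50e-06), each whichever library was left out. Gpx3 had the same order of groups. Cyba, the p22phox subunit of NADPH oxidases, rose under shear stress from 109 ± 2.65 to 212 ± 55.1 FPKM (adjusted p = 0.00731). Duox2, a dual oxidase, stood at 1.20 ± 0.134 FPKM in P3, 1.21 ± 0.270 in P9 and 10.2 ± 8.39 in FFSS, and both of its calls (adjusted p = 0.0475 against P3 and 0.0366 against P9) were lost under 8 of 9 omissions, all but that of FFSS replicate 1.

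Among glutathione transferases, Gsta4 was higher in both models. Its enzyme conjugates 4-hydroxynonenal, a product of lipid peroxidation. Gsta4 stood at 0.589, 1.08 and 0.805 FPKM in P3 (9 to 15 fragments), 2.76, 4.09 and 2.94 in P9, and 3.58, 4.42 and 3.33 in FFSS. P3 lay below all other libraries, and the models overlapped. On the log2(FPKM + 1) scale the change was 1.22 in P9 (0.81 to 1.63, adjusted p = 0.00351) and 1.39 in FFSS (0.98 to 1.80, adjusted p = 0.00198). Of the members, it alone passed as higher in both models, which share the P3 libraries, and Prdx3 alone passed as lower in both.

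Mgst1, a microsomal transferase and peroxidase, stood at 0.139, 0.229 and 0.428 FPKM in P3, from 2, 3 and 6 fragments. It stood at 1.85, 1.93 and 0.977 in P9 and 2.60, 0.867 and 2.20 in FFSS, above every P3 library. FFSS minus P3 was 1.14 (0.52 to 1.77, adjusted p = 0.0208), a call lost without P3 replicate 1 or 2 or FFSS replicate 3 (adjusted p = 0.0674 to 0.0771). P9 minus P3 was 1.02 (0.39 to 1.64, adjusted p = 0.0520), a call on leaving out FFSS replicate 1 (adjusted p = 0.0290) or 2 (adjusted p = 0.0156). It was also a call with a pseudocount of 0.1, TPM scaling or no trend (adjusted p at most 0.0431).

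Gstp1, the Pi class transferase, stood at 245, 287 and 215 FPKM in P3, 335, 330.4 and 419 in P9, and 321, 164 and 198 in FFSS. P9 lay above all other libraries, and FFSS spread from below to above P3. P9 passed against FFSS (log2 fold change 0.72, 0.18 to 1.26, adjusted p = 0.0475), lost when any library but FFSS replicate 1 was left out (adjusted p = 0.0622 to 0.138). Against P3 the adjusted p was 0.217, or 0.0407 without FFSS replicate 1 and 0.0420 with only P3 and P9 in the fit. Gstm1, a Mu class transferase, stood at 7.64 ± 0.426, 9.79 ± 1.61 and 10.3 ± 4.69 FPKM in P3, P9 and FFSS and did not pass.

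Iron handling was read from 12 further genes. At passage 9, 1 passed, and under shear stress 2 passed, each lower than in P3, where 9.83% and 21.8% of all tested genes passed. Between the models 3 passed (31.4% of all genes). Slc39a14, the zinc and iron importer ZIP14, fell at passage 9 to 17.8 ± 1.71 FPKM, where P3 had 58.1 ± 7.92 (log2 fold change -1.65, adjusted p = 0.000221), and stood at 69.5 ± 2.86 in FFSS (adjusted p = 2.30e-05 for P9 against FFSS). Those calls were kept whichever library was left out. Tfrc, the transferrin receptor, stood at 24.2 ± 1.496 FPKM in P3, 25.2 ± 6.07 in P9 and 11.4 ± 5.97 in FFSS (adjusted p = 0.0290 against P3 and 0.0183 against P9). Its call against P3 was lost without any P3 library or FFSS replicate 2 or 3, and that against P9 without P9 replicate 1 or FFSS replicate 3. Pcbp2, an iron chaperone, stood at 124 ± 3.58, 125 ± 17.8 and 91.2 ± 10.9 FPKM (adjusted p = 0.0413 and 0.0309), and those calls were lost on leaving out any P3 library, P9 replicate 2, or FFSS replicate 2 or 3, the call against P9 also without P9 replicate 1.

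Selenium supplies the active site of Gpx1, Gpx3, Gpx4 and Txnrd1, and 16 genes of selenoprotein synthesis or other selenoproteins were tested, of which 1 passed at passage 9, 4 under shear stress and 5 between the models (9.83%, 21.8% and 31.4% of all tested genes). The call at passage 9 was Selenof, of the endoplasmic reticulum, at 229.6 ± 7.59 FPKM in P3 and 339 ± 63.8 in P9 (adjusted p = 0.0363, lost under 5 of 9 omissions: all P3 libraries, P9 replicate 2 and FFSS replicate 3). Under shear stress 3 were higher and 1 lower. Selenop, the secreted selenium carrier, rose from 11.5 ± 3.15 to 49.5 ± 4.25 FPKM (2.05 on the log2 scale, adjusted p = 0.00108) and stood at 17.0 ± 4.27 in P9 (adjusted p = 0.00163 for P9 against FFSS).

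Selenok stood at 63.8 ± 9.23 FPKM in P3, 63.9 ± 2.58 in P9 and 97.7 ± 12.4 in FFSS. It passed in FFSS against P3 (adjusted p = 0.0139, lost without P3 replicate 1 or 2) and against P9 (adjusted p = 0.00985). Selenoo stood at 8.62 ± 0.192, 8.27 ± 0.618 and 12.5 ± 1.90 FPKM (adjusted p = 0.0297 against P3, lost under 5 omissions: all P3 libraries and FFSS replicates 2 and 3; adjusted p = 0.0137 against P9, lost without P9 replicate 2 or FFSS replicate 3). Selenoi, which makes a selenoenzyme of phospholipid synthesis, fell in FFSS from 16.4 ± 0.429 to 11.5 ± 0.537 FPKM (adjusted p = 0.0434, lost under 6 omissions: all P3 libraries, P9 replicate 2 and FFSS replicates 2 and 3). Selenom was lower in P9 than in FFSS, at 244 ± 75.6 against 415 ± 56.2 FPKM (adjusted p = 0.0254, and 0.0738 without FFSS replicate 2).

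Over all 7 lists of such related genes, 91 were tested. At passage 9, 8 were higher and 2 lower than in P3, where 9.83% of all tested genes passed. Under shear stress 15 were higher and 3 lower, where 21.8% of all genes passed, and between the models 11 were higher and 17 lower in P9, where 31.4% passed. Of the calls against P3, 4 of 10 at passage 9 and 8 of 18 under shear stress were kept whichever library was left out. The median log2 fold change over the 91 genes was 0.01 at passage 9 and 0.22 under shear stress, against medians near 0 over all tested genes.

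The members also varied among libraries of the same group. The median standard deviation over the 32 members was 0.0933 on the log2 scale in P3, 0.192 in P9 and 0.350 in FFSS, where it was 0.110, 0.175 and 0.268 over all tested genes. Within P3, replicate 2 was the highest library for 21 of 32 members (65.6%), where it was so for 38.2% of all tested genes. For 14 members, Nqo1, Hmox1, Gclc, Gclm, Gsr, Txnrd1, Taldo1, Gpx1, Prdx3, Prdx5, Prdx6, Sod3, Gstp1 and Ftl1, replicate 2 was highest and replicate 3 lowest. The share of all tested genes in this order was not counted, so the order is not read as particular to the members.

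Within FFSS, replicate 3 lay between the others for 25 of 32 members (78.1%), as for 58.8% of all tested genes. Replicate 2 was highest and replicate 1 lowest for 14 members: Nfe2l2, Nqo1, Hmox1, Gclc, Txnrd1, Me1, Gpx1, Gpx3, Gpx7, Gpx8, Prdx6, Sod1, Sod3 and Ftl1. The opposite order held for 11 members: Gclm, Gss, Txn1, Tkt, Taldo1, Prdx5, Sod2, Cat, Gstm1, Gstp1 and Mgst1. Sod2 and Sod3, both higher in FFSS than in P3, thus had opposite orders of libraries. How many of all tested genes had either order was not counted, so neither is read as particular to the members. Fragments of mitochondrial genes made up 2.12 to 2.32% of P3, 2.31 to 2.56% of P9 and 2.96 to 3.75% of FFSS libraries, and the part of this or of any other library property in the spread was not tested.

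**Figure D4:**
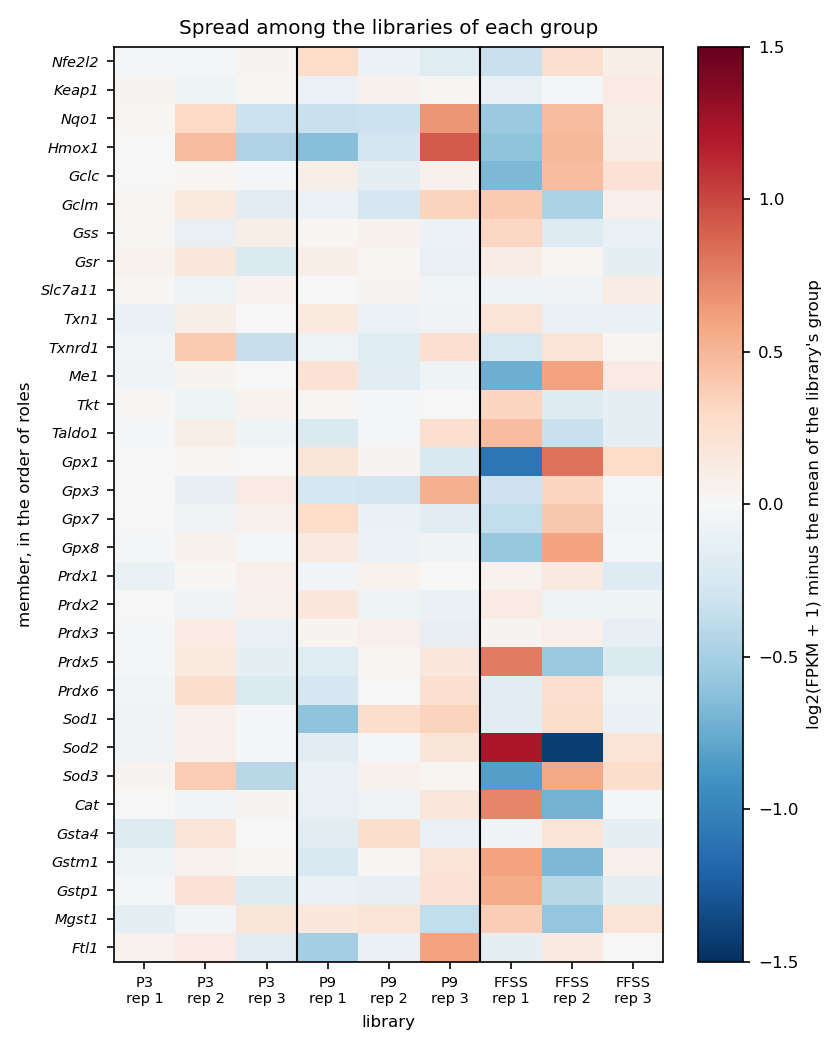
Deviation of each tested member (vertical axis, ordered by role) from the mean of its group in each of the 9 libraries (horizontal axis), in log2(FPKM + 1), as colour. The FFSS columns carry the strongest colours (median standard deviation over members 0.350, against 0.0933 in P3), with replicates 1 and 2 of opposite sign for most members.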

How the data were processed

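Libraries of polyadenylated RNA of cartilage progenitor cells (3 each of P3, P9 and FFSS) were used. HISAT2 2.0.5, featureCounts 1.5.0-p3 and the build Rnor_6.0 are named per the submitters' processing notes, and their settings and the strandedness of the libraries are not given in the sources used here. The values the authors deposited are FPKM for 34267 genes, of which 12299 were at 0 in every library. Value times gene length was a whole multiple of 1 step per library for 100% of values (tolerance 0.01 of a step), which gave 13264930 to 15323790 fragments per library. At this depth 3 fragments, the number that a count of 0 still allows, are 0.186 to 0.220 FPKM on a gene of 1 kilobase. This floor covers counting error only, because PCR copies were not told apart by molecular identifiers.

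The tested genes (13059) had 1 FPKM or more in at least 3 libraries. Group means of log2(FPKM + 1) were fitted over all 9 libraries with limma 3.58.1 in R 4.3.3, with a trend of the spread on expression, 6 residual and 2.93 prior degrees of freedom. Tests were two-sided, with Benjamini-Hochberg adjustment over all tested genes and 95% intervals. The fit was also run on simulated fragments with the same spread set for every group. Those data lacked the unequal spread of the real groups, so the run cannot show how the fit deals with it. The members and lists were chosen with earlier results of these data known. All members are named. Values per library are given for each member that passed in a comparison and for Nfe2l2, Keap1, Nqo1 and Hmox1. From each list of related genes up to 4 that passed in a comparison are named, by smallest adjusted p. A gene of these lists is not reported here and was left out of their counts. Alternatives were a pseudocount of 0.1, no filter, a filter of 5 FPKM, TPM scaling, scaling by library totals, only the groups compared, a replicate block, no trend, voom on the recovered fragments, and each library left out. Promoter windows came from RefSeq. Python 3.11.15 with pandas 2.3.3, NumPy 2.4.6 and matplotlib 3.10.9 prepared tables and figures.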

Additional observations from a re-analysis of the deposited data

How the results depend on the processing

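Of 96 pairs of a tested member and a comparison, 56 were called in some setting or belong to the 4 genes named in any case. Over the alternatives of these 56 (1000 values), 885 kept direction and side of the threshold, 61 no longer passed, 40 newly passed and 14 turned sign. Gpx3, Slc7a11, Gsta4, Hmox1, Sod2 and the shear stress changes of Sod3 and Prdx3 kept their calls wherever they were tested. With only the groups compared, limma called 2466 genes for P9 minus P3 (1284 with all groups) and 2537 for P9 minus FFSS (4100), with 9 members higher in P9 than P3 (3), 5 higher in FFSS than P3 (8) and 0 higher in P9 than FFSS (2). Members higher in P9 than P3 numbered 5 with TPM or library totals. Members higher in P9 than FFSS numbered 5 with TPM, and 0 with no filter, no trend or a replicate block (adjusted p of Gss 0.0523 to 0.0585 and of Gstp1 0.0539 to 0.0840). TPM scaling moved the median of all genes by -0.117 for FFSS minus P3 and 0.114 for P9 minus FFSS, and took the share of higher calls from 52.1% to 35.9% and from 51.3% to 63.4%. Leaving out 1 library, genes called ranged from 589 to 2228 for P9 minus P3 (lowest without P9 replicate 2), 1178 to 5022 for FFSS minus P3 (lowest without P3 replicate 1) and 2566 to 5876 for P9 minus FFSS (lowest without FFSS replicate 3), each highest without FFSS replicate 1. Members higher and lower ranged from 1 to 9 and 3 to 4, 4 to 9 and 1 to 3, and 0 to 6 and 4 to 9 in these comparisons. Among the 56 pairs, the log2 fold changes that turned sign belonged to Nfe2l2, Keap1 and Gclc, none of them called with all libraries. Of the other 40 pairs, called in no setting, 20 turned sign in at least 1 alternative (39 values). For P9 minus P3, Nfe2l2 was -0.00354 with voom and -0.127 to 0.103 over libraries left out. For FFSS minus P3, TPM gave -0.00587 for Nfe2l2 and -0.00913 for Keap1, and libraries left out gave -0.00559 to 0.287 for Nfe2l2 and -0.0703 to 0.499 for Gclc. For P9 minus FFSS, Nfe2l2 was 0.0131 with TPM and -0.277 to 0.0158 over libraries left out, and Keap1 was -0.0139 with voom and -0.0459 to 0.0672. The cause of these changes was not tested. Same-numbered libraries did not deviate together (correlations of -0.0408 to 0.0331), so no pairing by number was seen. With 3 libraries in each group, this cannot exclude a shared animal or culture behind a number. The replicate block called 982, 2265 and 3629 genes, and of the member calls it ended those of Gss, Gstp1 and Prdx2 (adjusted p = 0.0559). Depth limits Mgst1 in P3 (2 to 6 fragments).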
